A study of Caenorhabditis elegans with 2 samples.

Results

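eel-1 and T26A8.4 are protein-coding genes on chromosome IV of Caenorhabditis elegans at which the binding profile of the homeodomain protein VAB-15 held several peaks each. Their regions were all those whose summit, the position of highest signal, lay inside the gene or up to 5000 bp upstream of its annotated start. By that rule 28 of the 30000 regions in the pooled list belonged to the genes (21 to eel-1 and 7 to T26A8.4), as did 25 of 30000 in replicate 1 and 21 of 30000 in replicate 2. The authors' optimal set, the peaks kept by the irreproducible discovery rate procedure, held 6 of its 990 peaks there, 3 at each gene. That set consisted of the 990 strongest regions of the pooled list, with a signal of at least 108. A peak in it need not rank among the 990 strongest of each replicate. The genes, 2 of 19973 protein-coding genes, were chosen by their number of optimal peaks, which rests on the pooled signal, so those counts, and the signals and ranks behind them, are given as a description without a test.

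The series held 1 group, with 2 biological replicates and no genotype or treatment to compare. The worms were strain XIL99, mixed-sex whole L1 larvae, the first larval stage, starved after bleaching. Both replicates carried the same change, a C-terminal GFP-FLAG tag on VAB-15, inserted at vab-15 by CRISPR, and an anti-GFP antibody was used to pull down sonicated chromatin. Larvae without the tag were not analysed here, and a possible control experiment that the labels name was not used. Whole larvae do not show in which cells a region was bound, and the lists carry no read counts, so the depth is unknown. The signal is the authors' own value per region, and it had a median of 41.6 over the pooled list, 30.2 over replicate 1 and 17.2 over replicate 2. Because these scales differ, regions were compared between lists by rank, where 1 is the strongest.

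VAB-15 belongs to the Msx class of homeodomain transcription factors and is needed for the development of touch receptor neurons. eel-1 encodes a very large ubiquitin ligase of the HECT type, the worm orthologue of vertebrate HUWE1, which lowers the level of the transcription factor SKN-1 in embryos and acts in GABAergic motor neurons. A HECT ligase takes up ubiquitin itself before passing it to a substrate, which marks that protein for degradation or another fate. T26A8.4 encodes a protein with a CCCH-type zinc finger domain, per the RefSeq annotation, and it has no gene name in the files used here.

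The peaks are numbered from the end nearest the gene body, and the sequence at their summits is given because the layouts at the genes differ in it. Each line holds reference sequence (RefSeq genome, WBcel235, the assembly of ce11) from the 101 bases centred on a summit, read 5′ to 3′ on the minus strand, on which both genes lie. Capitals mark a match, on either strand, to 1 of 6 words of 6 bases. At eel-1 the bases that lie in a repeated stretch, described further on, are left out, and peak 2 has no line because all 101 of its bases lie in that stretch.
eel-1 peak 1, chrIV:3050423-3050490: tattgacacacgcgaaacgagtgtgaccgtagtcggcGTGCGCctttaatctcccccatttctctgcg
eel-1 peak 3, chrIV:3050887-3050964: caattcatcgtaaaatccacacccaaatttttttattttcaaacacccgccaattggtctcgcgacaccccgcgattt
T26A8.4 peak 1, chrIV:8431773-8431873: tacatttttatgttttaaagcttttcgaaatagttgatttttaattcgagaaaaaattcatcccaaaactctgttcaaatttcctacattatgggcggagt
T26A8.4 peak 2, chrIV:8432283-8432383: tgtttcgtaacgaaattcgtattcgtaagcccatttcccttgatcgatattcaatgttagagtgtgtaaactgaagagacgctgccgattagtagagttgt
T26A8.4 peak 3, chrIV:8432896-8432996: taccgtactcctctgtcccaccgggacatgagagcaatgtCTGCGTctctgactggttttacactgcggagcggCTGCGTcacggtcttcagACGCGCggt

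At eel-1 the optimal peaks formed 1 cluster of overlapping regions just upstream of the gene, strong in both replicates. eel-1 (WBGene00022069) lies on the minus strand at chrIV:3032713-3050104, 17392 bp with 8 annotated transcripts of 15 exons each, which begin at 3 different positions. The cluster covered 598 bp, chrIV:3050366-3050963, and no annotated gene overlapped it. Its summits lay 369, 595 and 810 bp upstream of the annotated start that reaches farthest, and 502, 728 and 943 bp upstream of the start that reaches least far. Peak 1 overlapped peak 2 by 99 bp, and peak 2 overlapped peak 3 by 73 bp.

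Peak 1 of eel-1 (chrIV:3050366-3050609, 244 bp) had a signal of 326 in the pooled list and 234 in replicate 1, where it ranked 30 and 29 of 30000. Replicate 2 had no region over this summit. Its nearest region there, chrIV:3050478-3050841, began 5 bp beyond the summit and is the region that covers peak 2. The strongest of the eel-1 peaks was therefore a region of its own in the pooled list and in replicate 1 only.

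Peak 2 (chrIV:3050511-3050886, 376 bp) had a signal of 289 in the pooled list, 192 in replicate 1 and 104 in replicate 2. Its ranks were 53, 68 and 34, so in replicate 2 this region was the strongest of the gene. The replicate summits lay 27 bp (replicate 1) and 39 bp (replicate 2) from the pooled summit, on the side of peak 1. Relative to the median region of each list, the signal was 6.96 times as high in the pooled list, 6.35 times in replicate 1 and 6.05 times in replicate 2.

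Peak 3 (chrIV:3050814-3050963, 150 bp) was the weakest of the cluster, with a signal of 134 in the pooled list, 91.0 in replicate 1 and 47.5 in replicate 2. It ranked 600, 654 and 540. Its summit moved by 3 bp in replicate 1 and by 8 bp in replicate 2. Each of these values lay among the 990 strongest regions of its list.

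**Figure D1:**
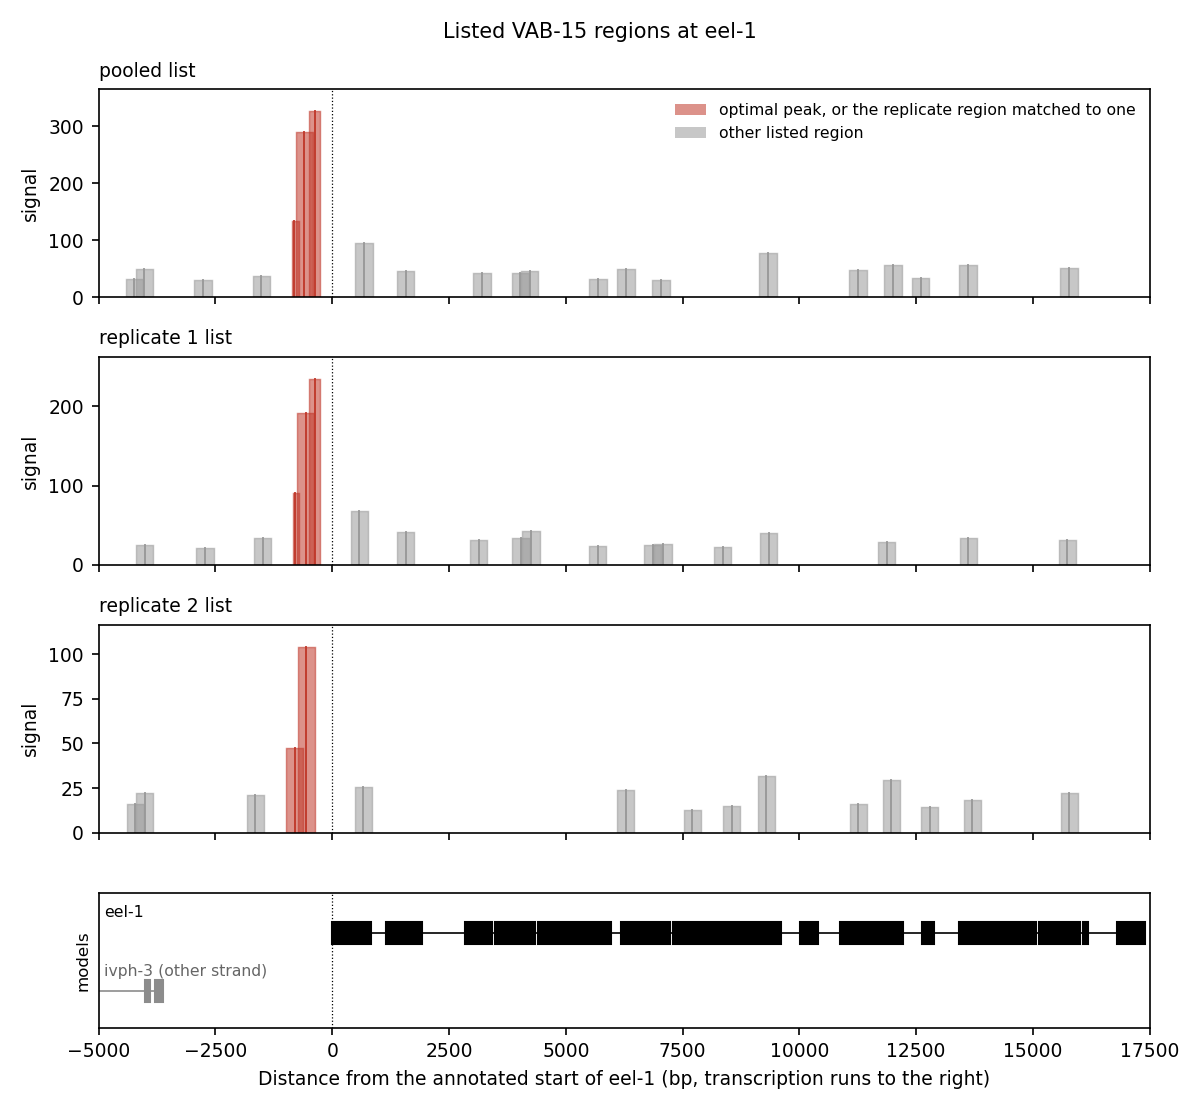
Listed regions at eel-1 in the pooled list and in each replicate, as boxes from start to end whose height is the authors' signal (a separate scale per list), with a line at each summit, against distance in bp from the annotated gene start; the bottom panel shows exons of eel-1 and of ivph-3. The optimal peaks stand at 369 to 810 bp upstream in the pooled list, the strongest replicate 2 regions at 556 and 802 bp, and the 18 other pooled regions stay at or under 95.8.

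The other 18 pooled regions of eel-1 had lower signals than the cluster and were spread over the gene body and the upstream sequence. Their signals ran from 30.0 to 95.8 with a median of 45.5, against 41.6 over the whole pooled list, and their ranks ran from 1402 to 29217. Of all 21 pooled regions, 13 had their summit in a coding exon, 1 in an intron and 7 upstream. Replicate 1 had 13 in coding exons and 6 upstream, and replicate 2 had 10 in coding exons and 5 upstream. The share of the gene's bases in exons was not computed, so these counts do not show a preference for exons. The strongest of the other regions had its summit in exon 2 at position 3049427, with a signal of 95.8 in the pooled list, 68.0 in replicate 1 and 25.5 in replicate 2. It ranked 1402, 1458 and 4392, outside the 990 strongest in each list, although its pooled −log10 q-value of 2.49 was above the 2.38 of peak 3. The share of eel-1 regions in the optimal set, 3 of 21 (14.3%), stands beside 3.3% of all pooled regions, a difference that the choice of the gene fixed. Among the 990 strongest regions were 3 of 19 in replicate 1 (15.8%) and 2 of 15 in replicate 2 (13.3%), again beside 3.3% of each whole list.

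At the edges of the eel-1 window no strong region was cut off. The last pooled summit inside lay 4235 bp upstream with a signal of 31.0, and the next one outside lay 5419 bp upstream with 62.2 (rank 4946). At the other end, the last summit inside lay 1618 bp before the gene end with 50.3, and the next lay 489 bp beyond it with 59.9.

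The cluster upstream of eel-1 sat on an inverted repeat, a sequence that is followed by its own reverse complement. The search for repeats was added after the values had been seen. The arms, chrIV:3050496-3050624 and chrIV:3050755-3050883, were 129 bp each and were identical at 128 positions (99.2%) when 1 was read in reverse complement. Between them lay 130 bp, and that stretch held the summit of peak 2. The summits of peaks 1 and 3 lay outside the repeat on either side, 23 bp and 31 bp from its ends. Each peak thus reached over at least a part of an arm.

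**Figure D2:**
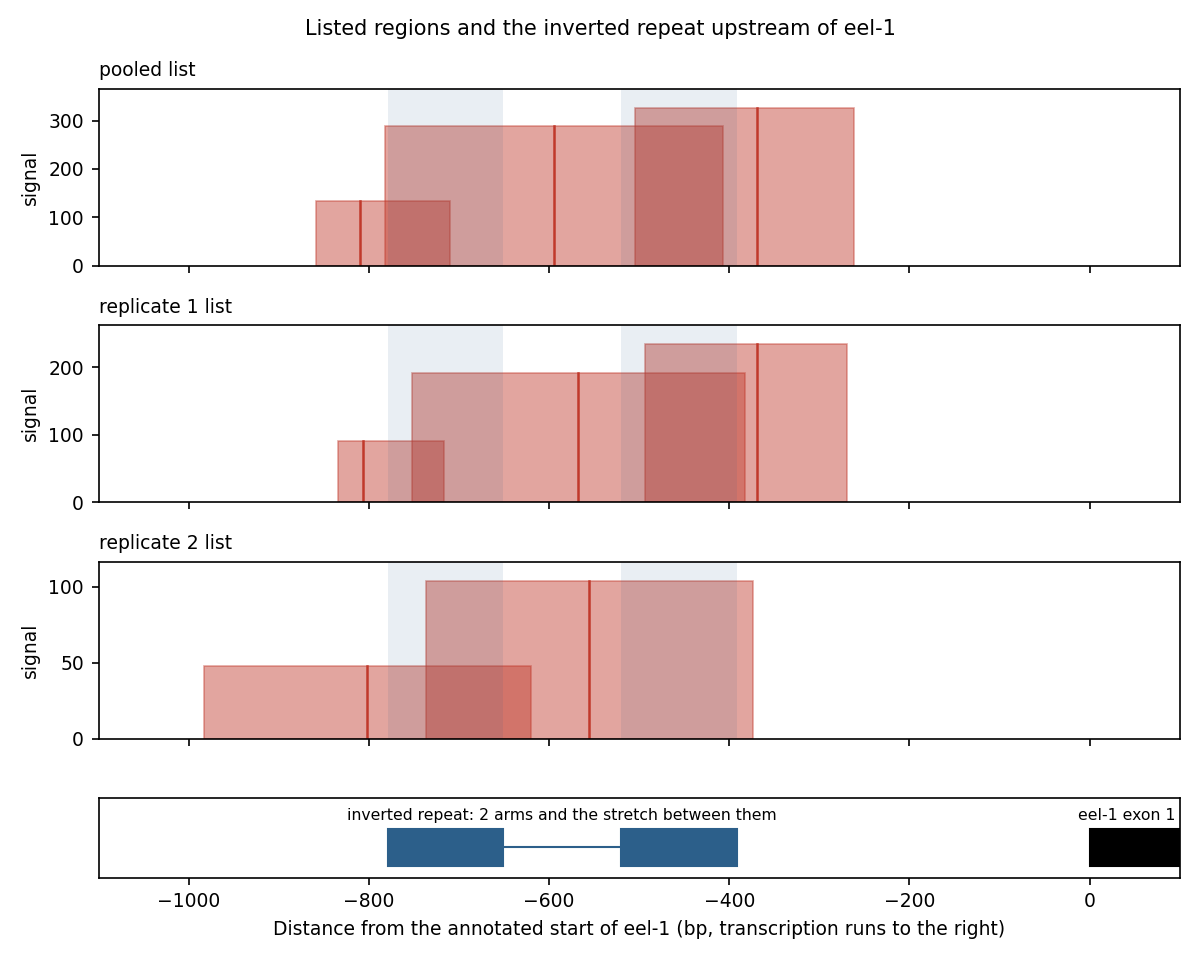
The cluster upstream of eel-1 in each list, drawn as boxes whose height is the signal with a line at the summit, against distance in bp from the annotated start, with the inverted repeat arms shaded and drawn in the bottom panel. The summit of peak 2 lies between the arms in every list, the summits of peaks 1 and 3 lie outside them, and replicate 2 has 2 boxes where the other lists have 3.

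The repeat was not particular to this place in the genome. Sequence was cut into stretches of 36 bases, and those that also occurred elsewhere in the genome, on either strand, were counted. In the summit window of peak 2 all 66 stretches did, and the whole window occurred letter for letter at 10 other places. In the windows of peaks 1 and 3 none of 66 did. Those windows still held 33 and 23 bases of the repeated sequence, fewer than the 36 that a match needs. Over the whole peaks, 72 of 209 stretches of peak 1 (34.4%), 288 of 341 of peak 2 (84.5%) and 38 of 115 of peak 3 (33.0%) occurred elsewhere. At T26A8.4 none of 341 did in any of the 3 peaks. Over all optimal peaks, 41 of 990 summit windows (4.14%) held any such stretch and 3 (0.303%) consisted of them entirely, against 1618 of 30000 (5.39%) and 60 (0.2%) of the pooled regions.

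Sequence shared with the cluster lay at 56 other places on 6 chromosomes, of which 29 held at least 100 matching stretches and spanned 323 to 785 bp. Of those 29, 15 (51.7%) overlapped a pooled region and 6 (20.7%) an optimal peak, by at least 1 base. Pooled regions covered 10.8% of the bases of the nuclear genome and optimal peaks 0.343%. A place of such length meets a region more often than a single base does, and no share for other places of like length was computed. The strongest region at any of the 29 had a signal of 190 and ranked 227, below peaks 1 and 2 of eel-1 and above peak 3. Whether reads that fit several places were kept or dropped is not given in the sources used here. How the repeat bears on the split of the cluster into 3 peaks, or on their heights, was not tested.

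At T26A8.4 the optimal peaks were separate, weaker than peaks 1 and 2 of eel-1, and much weaker in rank in replicate 2 than in replicate 1. T26A8.4 (WBGene00020827) lies on the minus strand at chrIV:8428957-8432893, 3937 bp with 2 annotated transcripts. The longer one, T26A8.4.2, has 6 exons, and a first exon of 134 bp is followed by an intron of 1266 bp. The shorter one, T26A8.4.1, begins at 8431493, downstream of that intron. The peaks spanned 1499 bp, over the start of the longer transcript and upstream of that of the shorter, with gaps of 134 and 237 bp between them and 510 and 613 bp between their summits.

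Peak 1 of T26A8.4 (chrIV:8431635-8432010, 376 bp) lay in the first intron, 1070 bp downstream of the start of the longer transcript and 330 bp upstream of the start of the shorter. Its signal was 153 in the pooled list, 131 in replicate 1 and 28.3 in replicate 2, with ranks of 420, 242 and 3066. It was the strongest of the gene's regions in the pooled list and in replicate 1, and the fourth in replicate 2.

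Peak 2 (chrIV:8432145-8432520, 376 bp) lay in the same intron, 560 bp downstream of the longer transcript's start and 840 bp upstream of the shorter one's. Its signal was 141 in the pooled list, 103 in replicate 1 and 32.4 in replicate 2, where it was the strongest region of the gene. It ranked 524, 475 and 1891.

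Peak 3 (chrIV:8432758-8433133, 376 bp) lay over the start of the longer transcript, with its summit 53 bp upstream. Its signal was 121 in the pooled list, 87.7 in replicate 1 and 29.4 in replicate 2, and it ranked 755, 714 and 2641. A further region of replicate 2 overlapped its region there, with a summit at 8433177 and a slightly higher signal of 30.6 (rank 2283).

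In replicate 2 all 3 peaks of T26A8.4 had a region over the pooled summit, with summits within 27 bp of it, yet none was among the 990 strongest, the last of which had a signal of 38.9. Relative to the median region of each list, the peaks stood at 4.33, 3.41 and 2.91 times in replicate 1 and at 1.65, 1.88 and 1.71 times in replicate 2. The deposited −log10 q-values were 3.15, 3.15 and 2.68 in replicate 1 and 1.60, 2.06 and 1.80 in replicate 2. Peaks 2 and 3 of eel-1 had 3.15 each in replicate 1, and 2.55 and 2.19 in replicate 2. Peak 3 of eel-1 thus stood close to the 2.06 of T26A8.4 peak 2 there, although they ranked 540 and 1891. In replicate 1 the peaks with signals from 91.0 to 234 all had the same 3.15, so it does not order them. In replicate 2 the region at rank 34 had only 2.55, so these values are not on a like scale between lists. With 1 list per replicate, a difference between the genes in how far the replicates share them could not be tested.

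**Figure D3:**
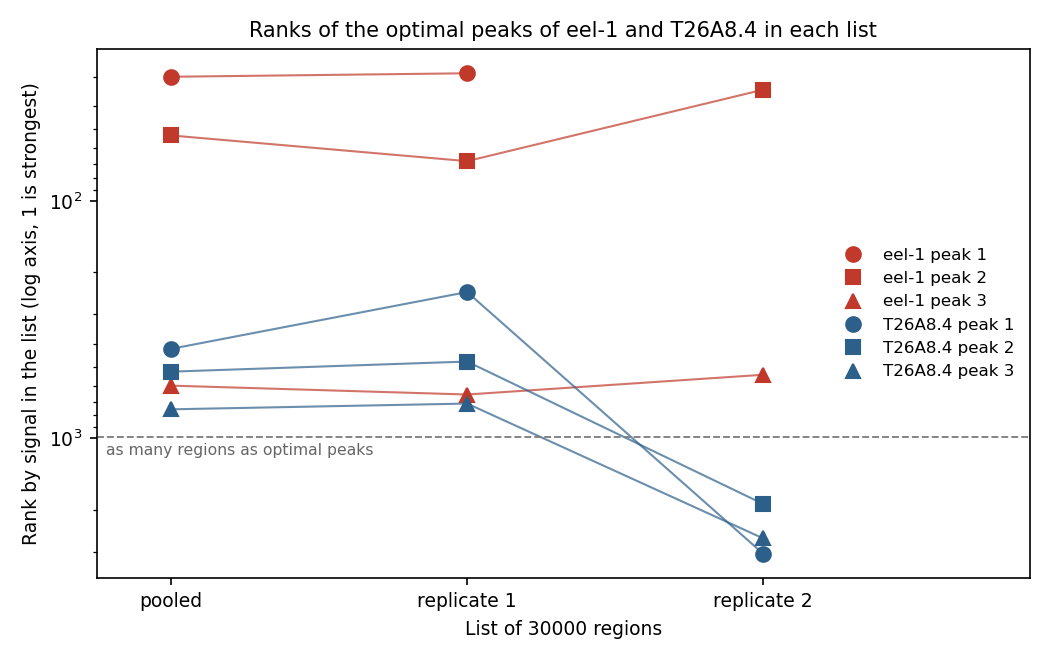
Rank by signal (log axis, 1 at the top) of the 6 optimal peaks in the pooled list and in each replicate, with eel-1 in red and T26A8.4 in blue; the dashed line marks rank 990. The eel-1 peaks stand between 29 and 654 wherever a region covered the summit (peak 1 has no point in replicate 2), and the T26A8.4 peaks stand at 242 to 755 in the pooled list and replicate 1 and at 1891 to 3066 in replicate 2.

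T26A8.4 had few other regions. The 4 others of the pooled list had signals of 33.9 to 61.3 and ranks of 5143 to 23436, and 1 of them, with a summit in the first intron, overlapped both peaks 1 and 2. In the optimal set were 3 of its 7 pooled regions (42.9%), beside 3.3% of the list, and among the 990 strongest were 3 of 6 in replicate 1 (50%) and 0 of 6 in replicate 2. No pooled summit lay between 587 bp and 15019 bp upstream. At the gene end, the last summit inside lay 1350 bp before the end with a signal of 43.9, and the next lay 264 bp beyond it with 41.4.

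**Figure D4:**
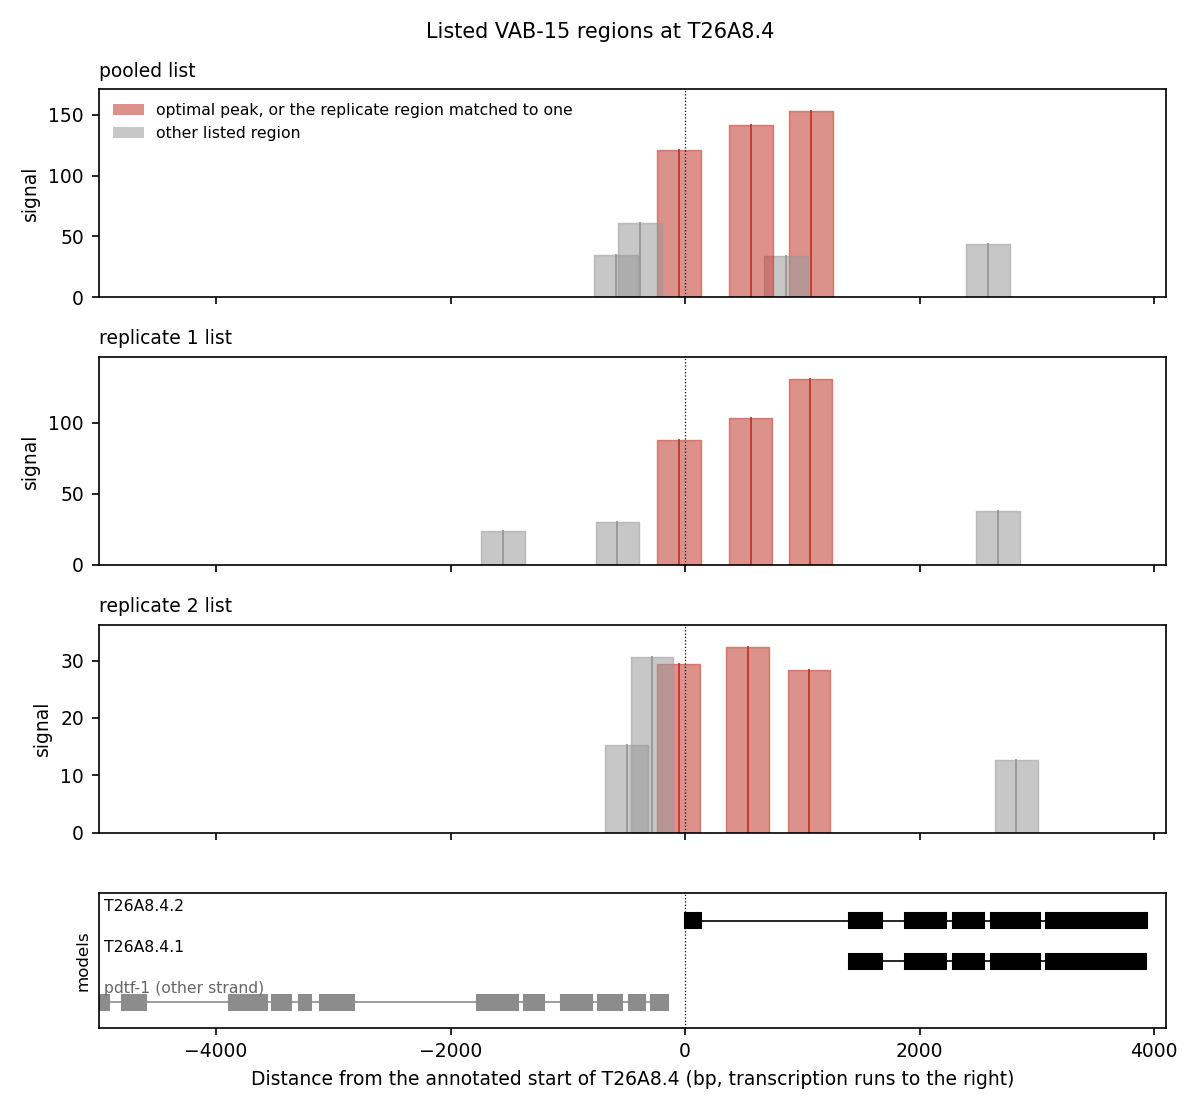
Listed regions at T26A8.4 in the pooled list and in each replicate, as boxes whose height is the authors' signal (a separate scale per list), with a line at each summit, against distance in bp from the start of the longer transcript; the bottom panel shows exons of both transcripts and of pdtf-1 on the other strand. The optimal peaks stand at 153, 141 and 121 in the pooled list and the replicate 2 regions at 28.3, 32.4 and 29.4.

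Both genes shared their peaks with a neighbour on the opposite strand. The neighbour upstream of T26A8.4, pdtf-1, named permeability-determining transcription factor in RefSeq, begins 145 bp from the start of the longer T26A8.4 transcript. The summit of peak 3 therefore lay between the genes, 53 bp upstream of T26A8.4 and 92 bp upstream of pdtf-1 (174 bp by the RefSeq start of pdtf-1). The region itself reached into the first exon of both. The neighbour upstream of eel-1, ivph-3, begins 3624 bp away by its farthest-reaching transcript, and the eel-1 summits lay 2814 to 3255 bp upstream of that start. Its other annotated transcripts begin farther from eel-1, at positions 3055714, 3056162 and 3061756. A pseudogene, Y67D8C.23, lies between eel-1 and ivph-3 at chrIV:3051756-3052358, and no optimal peak touched it. All 3 peaks of each cluster fell in the 5000 bp window of the neighbour as well, measured from its farthest-reaching start. The gene to which a peak relates cannot be told apart from these lists.

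The position within T26A8.4 depended on the gene model. The RefSeq model spans chrIV:8428961-8431493, which is the shorter transcript alone. By it all 3 peaks lay upstream, 330, 840 and 1453 bp from the start, and none inside the gene. eel-1 has the same span in both annotations.

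Few genes held as many peaks. At least 3 optimal peaks lay in or upstream of 19 of 19973 protein-coding genes (0.0951%), and at least 1 at 1854 (9.28%). Because overlapping windows share peaks, ivph-3 and pdtf-1 are among the 19. Long genes catch more regions, so genes with windows of 0.8 to 1.25 times the member's length were set beside each. For eel-1, 7 of 433 such genes (1.62%) had at least 3 optimal peaks. eel-1 had 21 pooled regions, against a median of 7 over those genes. For T26A8.4, 4 of 7130 (0.0561%) did, among them pdtf-1, whose optimal peaks are those of T26A8.4 itself. T26A8.4 had 7 pooled regions, against a median of 2. Per kb of window, eel-1 held 0.938 pooled regions and T26A8.4 0.783, against a median of 0.266 over all genes. The count of eel-1 exceeded that of 99.8% of genes and the count of T26A8.4 that of 91.8%, values that belong to the pattern for which they were chosen.

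The close packing at eel-1 was rare in the optimal set. Of 984 neighbouring pairs of peaks on a chromosome, 20 overlapped, and 2 of those 20 were the pairs at eel-1. With summits chained over gaps of at most 250 bp, the eel-1 cluster was the 1 group of 3 or more peaks in the genome, and it still was at 500 bp. At 1000 bp there were 4 such groups, at eel-1 (441 bp from first to last summit), T26A8.4 (1123 bp), R03E9.2 (1137 bp) and sma-9 (1168 bp). These gap lengths were chosen after the values had been seen, and the members were chosen for having several of these same peaks. With overlapping peaks merged, the eel-1 cluster counted as 1.

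The best signals of 326 (rank 30) at eel-1 and 153 (rank 420) at T26A8.4 stand beside those of other genes with several peaks. The tagged gene vab-15 held 4 optimal peaks, the best with a signal of 403 at rank 16. sma-9, which encodes a zinc finger transcription factor of the BMP-like pathway of body size, held 3, the best with a signal of 140 at rank 536. Among the 990 strongest regions of replicates 1 and 2 were 3 and 2 regions of eel-1 and 3 and 0 of T26A8.4, against 5 and 4 of vab-15 and 2 and 1 of sma-9.

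The genes most like each member were those with the smallest Euclidean distance over 4 counts, the optimal, pooled, replicate 1 and replicate 2 regions, each divided by its SD over protein-coding genes. For eel-1 these were ell-1 (distance 1.58, with 3 optimal peaks and 20 pooled regions), pqn-41 (2.38), F49E2.5 (2.80), zfp-1 (2.88) and sma-9 (2.91). For T26A8.4 they were pdtf-1 (0.501), which has the same peaks, rpl-3 and C04A2.15 (0.877 each), Y43F8B.2 (1.11) and ivph-3 (1.82), which has those of eel-1. Each of these genes held 3 optimal peaks. Among the genes most like T26A8.4, pdtf-1 alone had no region among the 990 strongest of replicate 2, and the others had 2 each.

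Base composition differed widely among the summit windows. The GC content was 55.4%, 40.6% and 45.5% at peaks 1 to 3 of eel-1 and 28.7%, 39.6% and 59.4% at those of T26A8.4, against medians of 46.5% over all optimal peaks and 40.6% over the pooled regions. The window of T26A8.4 peak 1 was among the poorest in GC, with 0.606% of optimal windows lower, and that of T26A8.4 peak 3 among the richest, with 95.4% lower. The eel-1 windows held 11, 11 and 7 CG dinucleotides and the T26A8.4 windows 3, 7 and 10, against a median of 6 over optimal peaks and 4 over pooled regions.

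The first word searched, on both strands like the others, was TAATTG, a core that homeodomain proteins bind. The other 5 had stood out in an earlier analysis of these same peaks, so they are no independent choice. They were GAGCGC (in 15.8% of all optimal windows and 2.77% of pooled ones), AGCGCG (12.4% and 2.13%), ACGCGC (12.7% and 2.64%), ACGCAG (13.6% and 3.77%) and GCGCAC (10.5% and 2.55%). Several can overlap, such as GAGCGC with the word AGCGCG. Of the 6 windows, 2 held a match, against 45.7% of all optimal windows and 16.9% of all pooled ones. Peak 1 of eel-1 held GCGCAC (as GTGCGC) 20 bp downstream of the summit. Peak 3 of T26A8.4, whose summit lay between divergent starts, held ACGCAG (as CTGCGT) 10 bp upstream and 24 bp downstream of the summit and ACGCGC 42 bp downstream. None of the 6 windows held TAATTG, which lay in 10.4% of optimal and 7.09% of pooled windows. A match is only a run of letters, and its absence from a window says nothing about the factor.

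The other HECT ligase genes held fewer optimal peaks than eel-1, a difference to be expected because eel-1 was chosen by that number. Of 7 genes in this list, 3 had at least 1 optimal peak, with a median of 0, where 9.28% of all protein-coding genes had one. Without eel-1 it was 2 of 6. Their windows were longer than the median gene's (7027 bp), from 9322 bp at etc-1 to 22392 bp at eel-1. Among genes with windows near eel-1's in length the share was 18.2%, and near T26A8.4's it was 10.6%. wwp-1, a HECT ligase gene linked to lifespan, held 2, the stronger with a signal of 356 at rank 25, 235 bp upstream of its start. oxi-1 held 1 with a signal of 109 at rank 966, 1269 bp upstream. hecd-1, etc-1, ubr-5 and hecw-1 held none, and their best regions ranked 1270, 6909, 10846 and 5569.

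Of 8 genes reported to act with eel-1 or with its vertebrate orthologue, 2 held an optimal peak, with a median of 0. At least 1 lay at 9.28% of all protein-coding genes, at 10.6% of those with windows near T26A8.4's in length and at 18.2% near eel-1's. The windows of the 8 ran from 7132 bp (fsn-1) to 19557 bp (rpm-1). mig-5, 1 of the Dishevelled genes of Wnt signalling, held 1 with a signal of 283 at rank 61, 181 bp upstream of its start. mml-1, which encodes a partner of the Max-like factor MXL-2, held 2, the stronger with a signal of 180 at rank 269, 1009 bp upstream. skn-1, the target of EEL-1 in embryos, held none, and its best region ranked 1594. rpm-1 and fsn-1, which encode parts of a ubiquitin ligase of motor neuron synapses, ogt-1, which encodes a glycosyltransferase, and the Dishevelled gene dsh-1 held none, and dsh-2 had no pooled region but 4 regions in replicate 1 and 3 in replicate 2.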

How the data were processed

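ChIP-seq of VAB-15 was represented by peak lists of 2 replicates, of their pooled data and of an optimal set made from both replicates. Which aligner, peak caller and thresholds were used is not given in the sources used here. On ce11, the deposited lists give each region the authors' signal, the offset of its summit and a −log10 q-value; each list has a preset length of 30000 regions, so it holds background. The signal was used only to rank and describe regions within a list, and the depth is unknown. The ce10 lists were not used.

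Summits were assigned to genes of Ensembl release 115 (WBcel235) with a window of the gene and 5000 bp upstream; regions were matched between lists where a region covered the pooled summit. Chromosome lengths of the genome were checked against the lists, and the assignment was checked on simulated data. Words were searched 50 bp on either side of the summit. Python 3.11.15, numpy 2.4.6, pandas 2.3.3 and matplotlib 3.10.9 were used. No test was run, since the members were chosen from these lists.

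Named were the members, genes in their windows, vab-15 and sma-9, the 5 genes most like each member and both lists of related genes; R03E9.2 was named after its values were seen. The members and lists were chosen with earlier results of these data known. Alternatives changed the window, overlap rule, signal minimum, number of strongest regions, replicate, word window, gene annotation and stretch length. The labels call the replicates biological.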

Additional observations from a re-analysis of the deposited data

How the results depend on the processing

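Of 61 alternative values, 45 kept within 1.5 times the value given in the results and 16 moved further. Inside the gene alone, eel-1 held 0 optimal peaks in place of 3 (also by the RefSeq span), and T26A8.4 held 4, 3 and 3 regions in the pooled, replicate 1 and replicate 2 lists in place of 7, 6 and 6. By the RefSeq span alone T26A8.4 held 0 optimal peaks. With overlapping regions merged, eel-1 held 1 optimal peak and T26A8.4 held 3 pooled regions. At or above the median signal of the optimal set, T26A8.4 held 1 optimal peak. Requiring the optimal peak among the 990 strongest regions of 1 replicate gave 2 to 3 peaks for eel-1 and 0 to 3 for T26A8.4, with 0 in replicate 2. The peaks still came from the pooled list, so neither replicate was truly left out. These values repeat those of the results and are no separate check. In replicate 2, the 495 strongest regions held 1 eel-1 peak in place of 2, and the 2970 strongest held 2 T26A8.4 peaks in place of 0. All 3 T26A8.4 peaks held a word with 100 bp on either side of the summit or over the whole region, in place of 1. Wider windows hold more words in any peak, and no share over all optimal peaks at these widths is given here. With 2000 bp upstream, 11 genes held at least 3 optimal peaks in place of 19. With stretches of 50 bases, chosen like the RefSeq span after the data were seen, 18 places held at least 100 matches in place of 29. The settings changed in these cases were the window, merging, the gene model, the limits, the replicate and the stretch length. Why no T26A8.4 peak was among the 990 strongest regions of replicate 2 was not tested. No paired analysis was possible because there is only 1 group.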
